A study of Mus musculus with 16 samples.

Results

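Prostaglandins and leukotrienes are lipid mediators made from arachidonic acid, and 10 genes of their synthesis and of the receptors for prostaglandin E2 were chosen by name for description. Of these 10, 9 had a probe set annotated with that symbol alone (Ptgs2, Ptges, Ptges2, Ptges3, Hpgds, Alox5, Alox5ap, Ptger2 and Ptger4), out of 19938 genes measured. Ptgs1, which encodes cyclooxygenase-1, had no such probe set and was not analysed here. Where a gene had several probe sets, the one with the highest mean over the 16 arrays was taken.

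The samples were mouse lung myeloid cells sorted for CD11b, CD11c and MHC class II, which the labels name CD11b+ DCs (dendritic cells). Lewis lung carcinoma cells, a mouse lung tumour line, had been placed in the airways of C57BL/6 mice of the same strain background with an intact immune system, so every sample came from a tumour-bearing lung and no array from a tumour-free lung was analysed here. The study compared cells sorted from the tumour (tumoral, 8 arrays) with cells sorted from the lung tissue around it (peritumoral, 8 arrays); neither set carried an engineered allele or a drug in its labels. Age, sex, time after inoculation and the animals or pools behind each array are not stated in the labels, so p-values measure only the spread between these samples, which may be technical.

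Cyclooxygenases convert arachidonic acid into prostaglandin H2, which terminal synthases turn into prostaglandin E2, prostaglandin D2 and the other prostanoids. 5-lipoxygenase, helped by its activating protein, starts the leukotriene branch from the same substrate. In lung, myeloid cells both make these mediators and carry their receptors, and prostaglandin E2 is known as a modulator of dendritic cell maturation and migration.

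The regions just upstream of 4 of these genes are shown because the description by array turns on them: Alox5 and Ptger4, which were low in the same 5 arrays, and Ptges and Ptger2, the 2 members lower in tumoral cells at an unadjusted limma p under 0.05. Each line is the 250 bases before the annotated start in RefSeq's GRCm38.p6 annotation, 5′ to 3′ on the gene's strand, with every GC box (GGGCGG, or CCGCCC on the opposite strand) in capitals. Alox5 is at chr6:116461179-116461428 and Ptger4 at chr15:5244188-5244437, both on the minus strand; Ptges is at chr2:30903298-30903547 on the minus strand and Ptger2 at chr14:44987861-44988110 on the plus strand.
Alox5: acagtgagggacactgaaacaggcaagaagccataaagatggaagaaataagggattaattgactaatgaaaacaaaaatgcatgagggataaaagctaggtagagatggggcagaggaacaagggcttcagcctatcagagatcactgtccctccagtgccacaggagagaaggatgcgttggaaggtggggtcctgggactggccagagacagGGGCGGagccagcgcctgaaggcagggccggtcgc
Ptger4: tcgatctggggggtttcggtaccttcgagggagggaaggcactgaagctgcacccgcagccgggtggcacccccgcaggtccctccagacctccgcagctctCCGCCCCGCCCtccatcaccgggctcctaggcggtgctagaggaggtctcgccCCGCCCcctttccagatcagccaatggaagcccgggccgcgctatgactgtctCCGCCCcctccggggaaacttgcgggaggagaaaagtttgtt
Ptges: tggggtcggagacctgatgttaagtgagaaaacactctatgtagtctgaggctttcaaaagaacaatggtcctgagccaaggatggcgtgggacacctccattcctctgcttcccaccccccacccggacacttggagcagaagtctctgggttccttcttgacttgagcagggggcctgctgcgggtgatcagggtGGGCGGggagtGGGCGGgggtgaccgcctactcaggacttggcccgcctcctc
Ptger2: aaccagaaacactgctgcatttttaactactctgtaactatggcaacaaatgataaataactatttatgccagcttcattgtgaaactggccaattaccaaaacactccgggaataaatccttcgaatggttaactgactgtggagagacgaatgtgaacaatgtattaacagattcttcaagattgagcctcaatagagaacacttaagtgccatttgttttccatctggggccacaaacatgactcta

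A window was found for 8 of the 9 genes, by symbol, and a GC box for 5 of the 8: 1 in Ptgs2, 2 in Ptges, 3 in Ptges3, 1 in Alox5 and 4 in Ptger4. Of all 32851 windows of this length, 32.7% held a GC box. A single form of the core letters of the hypoxia response element (ACGTG, or CACGT on the opposite strand) was searched for. That form was found in 1 of the 8 windows, that of Ptges2, and in 16.6% of all windows. Other forms of the core were not searched for, so the remaining windows cannot be said to lack it. The Ptges2 window held no GC box, so the motifs did not overlap there. G and C made up 52.8% of the Alox5 window, 66.8% of that of Ptger4, 59.6% of that of Ptges and 38.0% of that of Ptger2, against a median of 52.4% over all windows. These matches describe letters in a window and were not tested as binding sites.

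Values are given on the log2 scale on which the deposited table appears to be; no label states its log base or normalization. Over the 16 arrays the deposited values ran from 2.31 to 14.33, with array medians between 6.75 and 6.95. Peritumoral array 4 stood apart: its median correlation with the other arrays across the 19938 genes was 0.953, against 0.979 to 0.992 for the rest. The mean of 9 endothelial genes was 10.83 in that array, 8.59 in peritumoral array 7 and 6.68 to 7.38 in the other 14 arrays. Peritumoral arrays 7 and 8 lay with the tumoral arrays in some genes given below, although their titles call them peritumoral. Of the sorting markers, H2-Ab1 lay between 13.06 and 13.38 in all 16 arrays, Itgax between 11.07 and 11.79 and Itgam between 10.18 and 11.80. Itgax and Itgam were lowest in peritumoral array 4. The 12 dendritic cell markers averaged 10.87 to 11.60 on the peritumoral and 10.97 to 11.58 on the tumoral arrays. In these bulk samples, fewer cells of a type and less RNA per cell cannot be told apart.

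No member passed the threshold between tumour and surrounding tissue. limma compared the labels over all 19938 genes, and at a Benjamini-Hochberg adjusted p under 0.05 it called 0 of the 9 members, beside a background of 0% of all genes. At an unadjusted limma p under 0.05 it counted 4 of the 9 members, with Ptges3 and Hpgds higher and Ptges and Ptger2 lower in tumoral cells, against 11.5% of all genes (5.60% higher and 5.90% lower). The exact permutation of the labels, adjusted over all genes, called 0 members too. By mean, 5 members were higher and 4 lower in tumoral cells, with a median difference of 0.01 against -0.022 over all genes. The values of the labels overlapped for all 9 members; they did not overlap for 0.0853% of all genes.

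Markers of other cell types also differed by mean between the labels, although limma called none of them at an adjusted p under 0.05. All 10 neutrophil, 9 endothelial, 9 fibroblast, 12 lung epithelial and 4 B cell markers and 7 of 8 T and NK cell markers were lower by mean in tumoral cells, as were Ptges and Ptger2. Of these, 2, 4, 4, 4, 0 and 3 had an unadjusted limma p under 0.05. The neutrophil list mean was 6.22 to 7.87 on peritumoral and 6.05 to 6.81 on tumoral arrays, the endothelial 6.69 to 10.83 and 6.68 to 6.80, the fibroblast 7.66 to 9.51 and 7.32 to 7.74, and the lung epithelial 7.46 to 9.66 and 7.23 to 7.91. The monocyte and macrophage markers went the other way, as did Ptges3 and Hpgds: 7 of 8 were higher by mean and 3 had an unadjusted limma p under 0.05, with list means of 10.21 to 10.90 and 10.69 to 11.10. Of the 12 dendritic cell markers 10 were also higher by mean, 0 of them at that p. Lower by mean were 6 of 7 alveolar macrophage, 9 of 11 mast cell and basophil, 3 of 5 eosinophil and 4 of 6 platelet markers. The part of these cell types in the members' values was not tested.

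**Figure D1:**
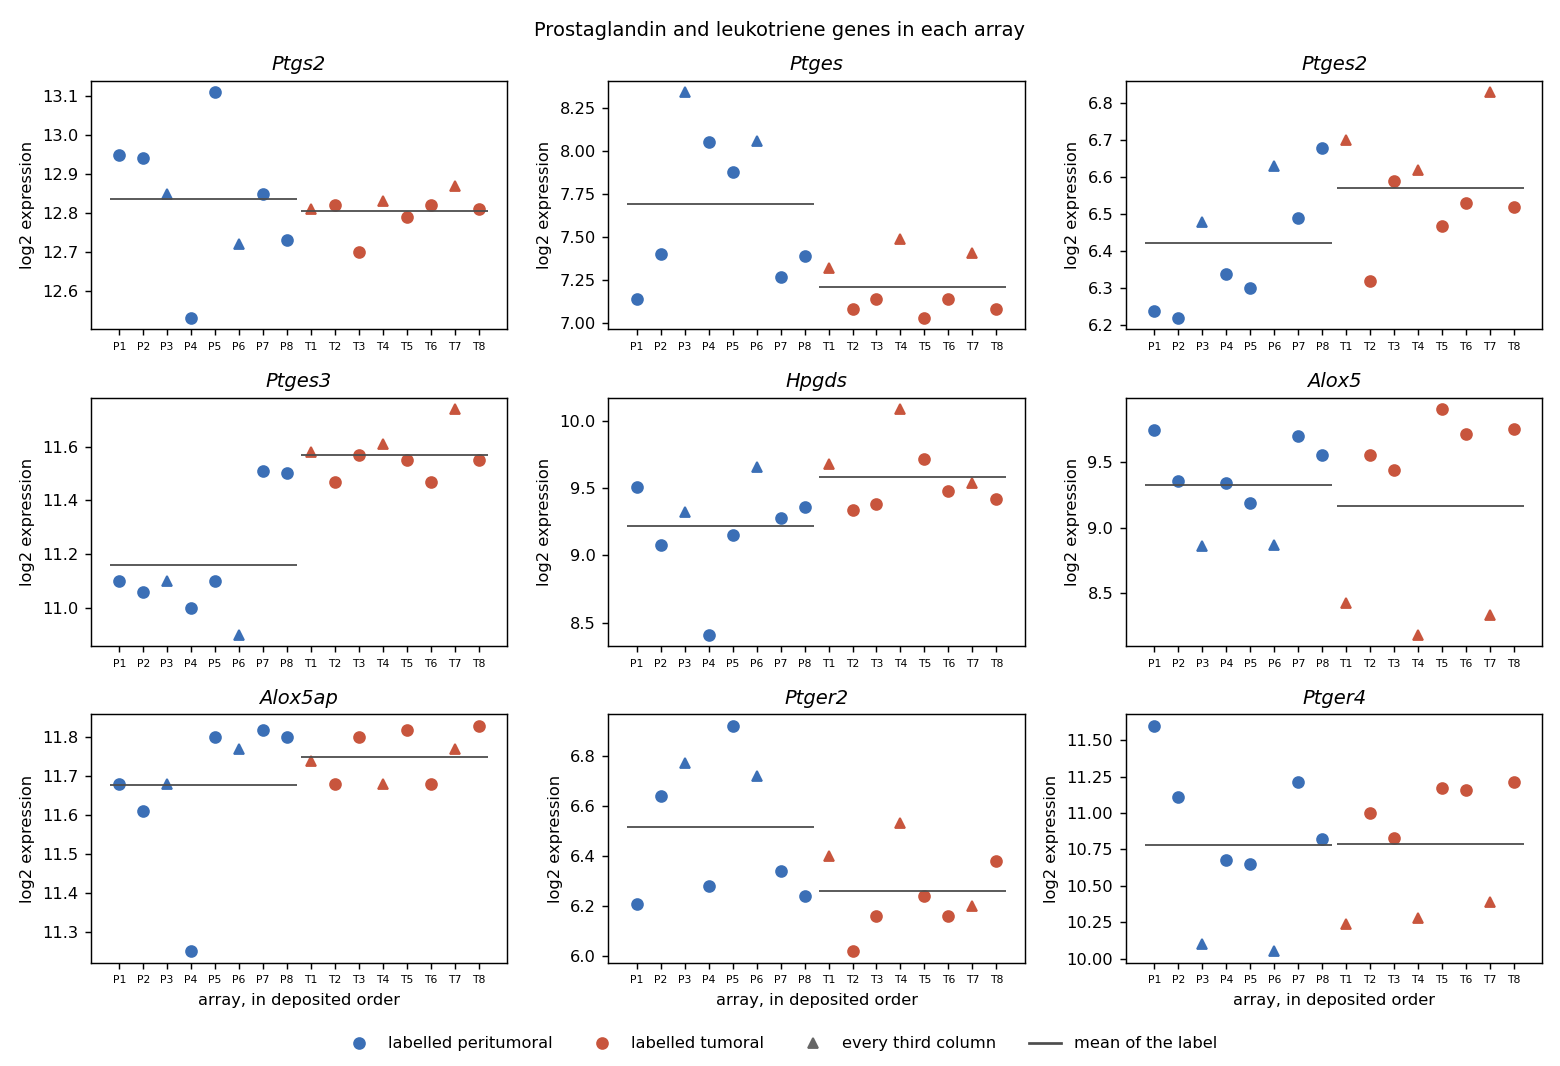
Level of each of the 9 genes (log2, vertical axis) in each of the 16 arrays, with peritumoral and tumoral arrays in deposited order, each point 1 array, triangles the arrays in columns 3, 6, 9, 12 and 15, and lines the mean of each label. Alox5 reaches its lowest values, 8.18 to 8.87, in peritumoral arrays 3 and 6 and tumoral arrays 1, 4 and 7, and Ptges3 steps up from 10.90 to 11.10 in peritumoral arrays 1 to 6 to 11.47 to 11.74 in the other 10.

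Ptgs2, which encodes cyclooxygenase-2, the inducible enzyme at the head of prostanoid synthesis, was bright under both labels. Its level was 12.53 at lowest, 12.85 at the median and 13.11 at highest in peritumoral arrays, and 12.70, 12.82 and 12.87 in tumoral arrays. The means were 12.83 ± 0.18 and 12.81 ± 0.05 (SD, n = 8 each), a difference of -0.03 (SE 0.07, 95% interval -0.17 to 0.12, limma adjusted p = 0.917). The tumoral arrays lay inside the peritumoral range. The peritumoral SD was 3.61 times the tumoral SD, where the median ratio over all genes was 1.01; the difference in spread was not tested.

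Ptges encodes microsomal prostaglandin E synthase-1, the inducible terminal enzyme usually paired with cyclooxygenase-2. Its level in peritumoral arrays 1 to 8 was 7.14, 7.40, 8.34, 8.05, 7.88, 8.06, 7.27 and 7.39, and in tumoral arrays 1 to 8 it was 7.32, 7.08, 7.14, 7.49, 7.03, 7.14, 7.41 and 7.08. Peritumoral arrays 3 to 6 were above every other array, while the other 4 peritumoral arrays overlapped the tumoral ones. The means were 7.69 ± 0.44 and 7.21 ± 0.17 (SD, n = 8 each), a difference of -0.48 (SE 0.15, 95% interval -0.81 to -0.15), with a limma p of 0.00629 unadjusted and 0.283 adjusted.

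Ptges3, also called p23, is a co-chaperone of Hsp90 that is also described as the cytosolic prostaglandin E synthase. Its level in peritumoral arrays 1 to 8 was 11.10, 11.06, 11.10, 11.00, 11.10, 10.90, 11.51 and 11.50, and in tumoral arrays 1 to 8 it was 11.58, 11.47, 11.57, 11.61, 11.55, 11.47, 11.74 and 11.55. Peritumoral arrays 1 to 6 were thus below all tumoral arrays, and peritumoral arrays 7 and 8 lay within the tumoral range. The means were 11.16 ± 0.23 and 11.57 ± 0.09 (SD, n = 8 each), a difference of 0.41 (SE 0.08, 95% interval 0.23 to 0.59). The limma p was 0.000154 unadjusted and 0.232 adjusted, and 0.232 was also the smallest adjusted p of any gene.

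The call on Ptges3 turned on single peritumoral arrays. Without peritumoral array 7 its difference was 0.46 with a limma adjusted p of 0.02, when 0.642% of all genes were called, and without array 8 it was 0.46 with 0.046, when 20 genes were called. Without both, 1 of the 9 members was called beside 2.62% of all genes. These are the 2 peritumoral arrays whose Ptges3 lay in the tumoral range, so leaving them out separates the labels further by construction, and these calls are no support for a difference. Both are labelled peritumoral, and nothing in the labels sets them apart.

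The first 6 arrays in deposited order lay below the other 10 in 0.983% of all genes and above them in 0.677%. Among the 9 members Ptges3 alone was wholly lower in the first 6 and none was wholly higher. Of the 12 dendritic cell markers and the 8 monocyte and macrophage markers, 0 separated those 6 arrays from the other 10, and the list means ran from 10.87 to 11.58 against 10.97 to 11.60 and from 10.21 to 10.90 against 10.66 to 11.10. Of the 12 lung epithelial markers, 2 were wholly higher in the first 6, with list means of 7.46 to 9.66 against 7.23 to 8.17; their part in the result was not tested.

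Ptges3 has 3 probe sets that carry its symbol alone. The place of the one with the highest mean is uncertain, as is that of a second one. Probe sets are numbered roughly by chromosome position, and 9 of the 10 nearest in number to the one described lie in genes of chromosome 4, whereas Ptges3 is annotated on chromosome 10. A second sat among genes of chromosome 6 (9 of 10) and the other among genes of chromosome 10 (9 of 10). The probe sets may read near-identical copies elsewhere in the genome, which these data cannot separate from the gene. The one placed on chromosome 10 gave 8.08 to 8.33 in the first 6 arrays and 8.66 to 9.03 in the other 10, with a difference of 0.46 between the labels. The one placed on chromosome 6 gave 9.90 to 10.18 and 10.57 to 10.88, with a difference of 0.47. All 3 therefore showed the same step between the same arrays. The other 8 members' probe sets lay among neighbours on the gene's own chromosome.

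Ptges2, the membrane-associated prostaglandin E synthase-2, was 6.22 at lowest, 6.41 at the median and 6.68 at highest in peritumoral arrays, and 6.32, 6.56 and 6.83 in tumoral arrays. The labels overlapped over most of their range. Ptges2 read low on these arrays, with its mean at percentile 38.1 of the gene means, whose median was 7.02. Whether Ptges2 stood above the array background was not tested. The means were 6.42 ± 0.18 and 6.57 ± 0.15 (SD, n = 8 each), a difference of 0.15 (SE 0.08, 95% interval -0.02 to 0.32, limma adjusted p = 0.494).

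**Figure D2:**
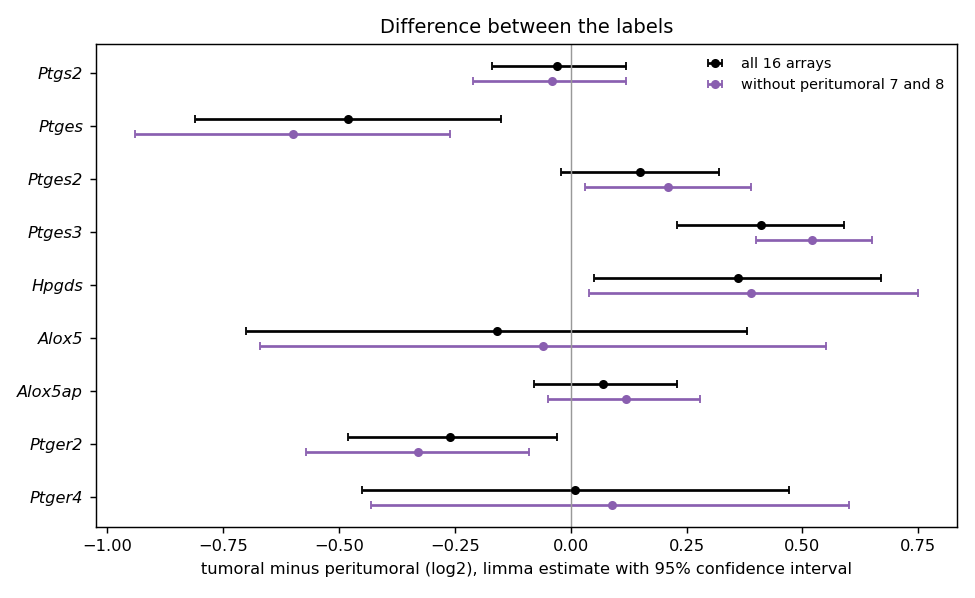
Tumoral minus peritumoral difference of each of the 9 genes (log2, horizontal axis), with points at the limma estimate and bars the 95% interval. Black marks all 16 arrays and purple the fit without peritumoral arrays 7 and 8. Over all 16 arrays the intervals of Ptges and Ptger2 lie below 0 and those of Ptges3 and Hpgds above it. No gene passed the threshold there after adjustment over 19938 genes. Without peritumoral arrays 7 and 8 the Ptges2 interval (0.03 to 0.39) also lies above 0. Ptges3 then passed (limma adjusted p = 0.000197), a call that leaving out these arrays favours by construction.

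Hpgds encodes the hematopoietic prostaglandin D synthase, which makes prostaglandin D2 in immune cells. Its level in peritumoral arrays 1 to 8 was 9.51, 9.08, 9.32, 8.41, 9.15, 9.66, 9.28 and 9.36, and in tumoral arrays 1 to 8 it was 9.68, 9.34, 9.38, 10.09, 9.72, 9.48, 9.54 and 9.42. Peritumoral array 4 was the lowest and tumoral array 4 the highest, with the other arrays overlapping. The means were 9.22 ± 0.37 and 9.58 ± 0.25 (SD, n = 8 each), a difference of 0.36 (SE 0.15, 95% interval 0.05 to 0.67, limma adjusted p = 0.370). Without peritumoral array 4 the difference was 0.24. Mast cells and some T cells are known sources of this enzyme. The 11 mast cell and basophil markers averaged 5.63 to 6.49 on peritumoral and 5.57 to 6.02 on tumoral arrays, and the 8 T and NK cell markers 6.58 to 8.25 and 6.46 to 6.79; their part in the result was not tested.

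Alox5 encodes 5-lipoxygenase, which makes leukotriene A4. Its level in peritumoral arrays 1 to 8 was 9.75, 9.36, 8.86, 9.34, 9.19, 8.87, 9.70 and 9.56, and in tumoral arrays 1 to 8 it was 8.42, 9.56, 9.44, 8.18, 9.91, 9.72, 8.33 and 9.76. Tumoral arrays 1, 4 and 7 were lower than all other arrays, and the other 5 tumoral arrays lay at the upper end of the range. The means were 9.33 ± 0.34 and 9.16 ± 0.72 (SD, n = 8 each), a difference of -0.16 (SE 0.26, 95% interval -0.70 to 0.38, limma adjusted p = 0.843). With 1 array left out in turn the difference ran from -0.27 to -0.02, the latter without tumoral array 4. The spread within the tumoral label was thus far wider than the difference between the labels.

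Alox5ap encodes the 5-lipoxygenase activating protein, which presents arachidonic acid to the enzyme. Its level was 11.25, 11.73 and 11.82 (lowest, median, highest) in peritumoral and 11.68, 11.75 and 11.83 in tumoral arrays. Apart from peritumoral array 4, the lowest of all, the arrays lay within a narrow band under both labels. The means were 11.68 ± 0.19 and 11.75 ± 0.06 (SD, n = 8 each), a difference of 0.07 (SE 0.07, limma adjusted p = 0.723), which was 0.01 without peritumoral array 4. The low values of Alox5 in tumoral arrays 1, 4 and 7 had no counterpart in Alox5ap, which read 11.74, 11.68 and 11.77 there.

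Ptger4 encodes the EP4 receptor, which couples prostaglandin E2 to cyclic AMP. Its level in peritumoral arrays 1 to 8 was 11.60, 11.11, 10.10, 10.68, 10.65, 10.05, 11.21 and 10.82, and in tumoral arrays 1 to 8 it was 10.24, 11.00, 10.83, 10.28, 11.17, 11.16, 10.39 and 11.21. Low and high arrays occurred under both labels. The means were 10.78 ± 0.53 and 10.78 ± 0.42 (SD, n = 8 each), a difference of 0.01 (SE 0.22, 95% interval -0.45 to 0.47, limma adjusted p = 0.994). Its sign turned with the normalization.

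Ptger2 encodes the EP2 receptor, which also raises cyclic AMP. Ptger2 read low on these arrays, with its mean at percentile 35.6 of the gene means, whose median was 7.02. Whether Ptger2 stood above the array background was not tested. Its level in peritumoral arrays 1 to 8 was 6.21, 6.64, 6.77, 6.28, 6.92, 6.72, 6.34 and 6.24, and in tumoral arrays 1 to 8 it was 6.40, 6.02, 6.16, 6.53, 6.24, 6.16, 6.20 and 6.38. Peritumoral arrays 2, 3, 5 and 6 lay above all others, and the remaining peritumoral arrays were within the tumoral range. The means were 6.52 ± 0.28 and 6.26 ± 0.16 (SD, n = 8 each), a difference of -0.26 (SE 0.11, 95% interval -0.48 to -0.03, limma adjusted p = 0.386).

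Much of the variation in Alox5 and Ptger4 followed the order of the deposited columns instead of the labels. Across the 19938 genes, each of the 16 arrays correlated best with an array at the same place when columns were counted in steps of 3. The best r was 0.993 to 0.997, and 0.968 for peritumoral array 4. The 5 arrays in columns 3, 6, 9, 12 and 15 are peritumoral 3 and 6 and tumoral 1, 4 and 7. In these, Alox5 was 8.18 to 8.87 against 9.19 to 9.91 in the other 11, and Ptger4 was 10.05 to 10.39 against 10.65 to 11.60. The remaining 7 members overlapped between these arrays and the others; over all genes, 3.60% were wholly lower and 8.37% wholly higher in the 5 arrays. No label says what the place of a column stands for, so the arrays are set side by side by it as a description, and the difference between the places was not tested.

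With the column place as a block, an alternative chosen after seeing the data, the difference between the labels was -0.05 (SE 0.11) for Alox5 and 0.10 (SE 0.11) for Ptger4. The SE of Alox5 without the block was 0.26 and that of Ptger4 was 0.22. Under the same block Ptges stood at -0.54 and Ptges3 at 0.41, each with a limma adjusted p of 0.0795.

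Markers of the sorted cells and of other cells moved with this order. Of the 12 dendritic cell markers, 4 (Flt3, Zbtb46, Irf4 and Cd209a) were wholly lower in the 5 arrays, 2 (Itgam and Sirpa) were wholly higher and 6 overlapped. Flt3, the receptor for the growth factor of dendritic cells, was 8.73 to 9.25 against 9.39 to 10.45, and Irf4, a transcription factor of CD11b+ dendritic cells, was 8.77 to 9.39 against 9.88 to 10.66. Itgam, which encodes CD11b, was 11.53 to 11.80 against 10.18 to 11.50. These marker genes were named after their values were seen.

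Other marker lists differed in direction in the same 5 arrays. The mean of the 8 monocyte and macrophage markers was 10.75 to 11.10 against 10.21 to 10.97, with 0 of 8 separated. The 4 B cell markers averaged 6.14 to 6.49 against 6.86 to 9.42, with 3 of 4 wholly lower, and the 12 lung epithelial markers averaged 7.23 to 7.46 against 7.69 to 9.66, with 5 of 12 wholly lower. The 11 mast cell and basophil markers averaged 5.57 to 5.67 against 5.69 to 6.49, the last in peritumoral array 4. Only Kit was wholly lower (7.76 to 8.70 against 8.93 to 9.79), and the other 10 overlapped. The 6 platelet markers averaged 8.13 to 8.29 against 7.55 to 8.07, but differed in direction. Pf4 and Ppbp were wholly higher, and Gp9 was wholly lower (6.52 to 6.72 against 6.80 to 7.26). The other 3, Itga2b, Gp5 and Treml1, overlapped, with Itga2b at 6.73 to 6.94 against 6.90 to 7.24. The 10 neutrophil markers overlapped in their mean, at 6.11 to 6.51 against 6.05 to 7.87, with Mmp8 wholly higher and Ltf wholly lower. These genes too were named after their values were seen. Whether the cell content of the arrays had a part in the levels of Alox5 and Ptger4 was not tested.

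**Figure D3:**
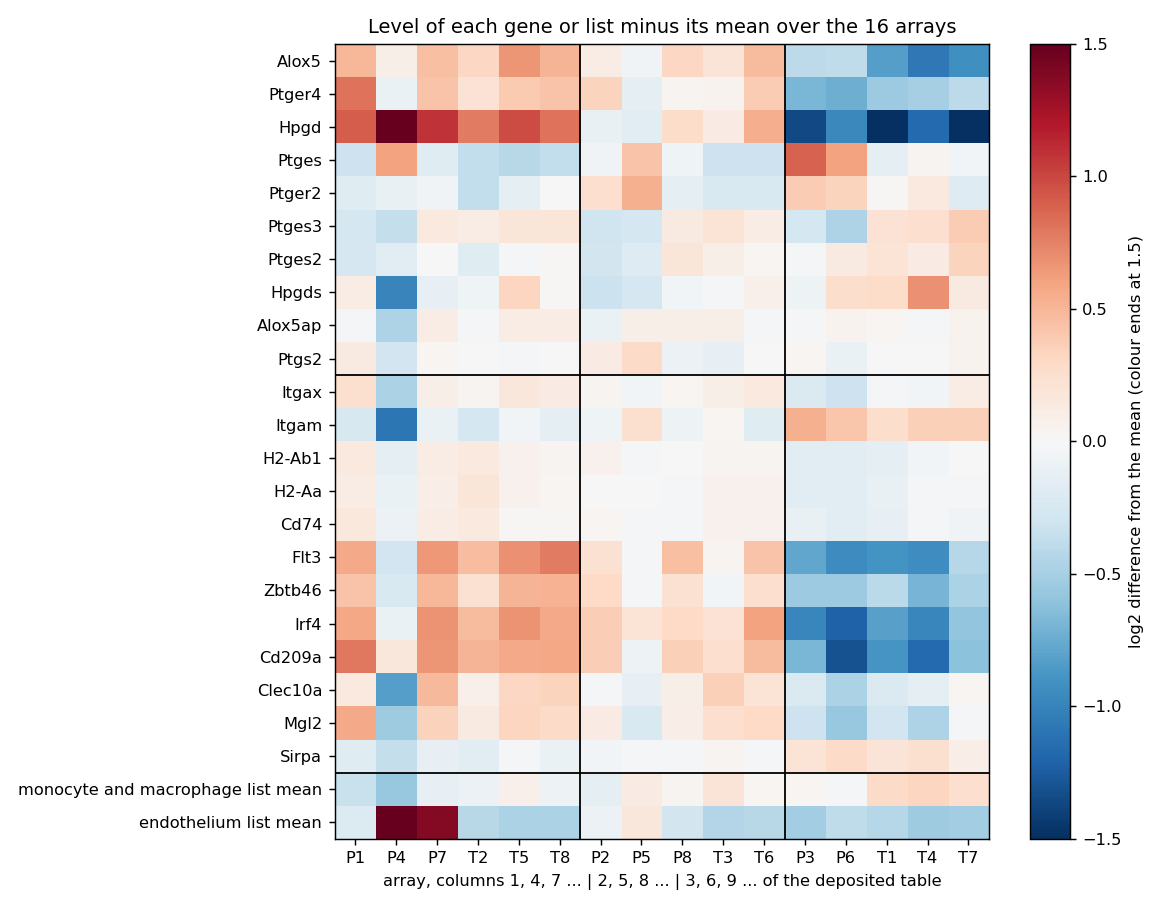
Level of each gene, and of 2 marker lists as a mean, minus its own mean over the 16 arrays (log2, colour, ending at 1.5), with arrays grouped by column place in steps of 3 and vertical lines between the places. Rows hold the 9 genes with Hpgd, the 12 dendritic cell markers and the lists; the 5 arrays at the right share the low Alox5, Ptger4, Hpgd, Flt3, Zbtb46, Irf4 and Cd209a.

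Within each label, Ptges ran opposite to Alox5. In peritumoral cells the 4 arrays with the highest Ptges (arrays 3 to 6, at 7.88 to 8.34) were the 4 with the lowest Alox5 (8.86 to 9.34). In tumoral cells the 3 arrays with the highest Ptges (arrays 1, 4 and 7, at 7.32 to 7.49) were the 3 with the lowest Alox5 (8.18 to 8.42). Tumoral arrays 1, 4 and 7 and peritumoral arrays 3 and 6 are the 5 arrays set apart by the column order described above. Peritumoral arrays 4 and 5 are not among them. For those 5 arrays the relation cannot be told apart from that order, so no correlation coefficient is given for the pair.

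For each member, the 3 genes whose levels followed it most closely over the 16 arrays are given as a description, with Pearson's r, since the points share the array sets described above. Alox5 was followed by Fgfr1 (0.98), Plxna4 (0.97) and P3h2 (0.96), and Ptger4 by H2-Eb1 (0.99), Cd209b (0.97) and Cd209d (0.97). Ptges3 was followed by Ascc3, Atp5h and Sem1 (0.95 each), Ptges by Flrt2, Rab34 and Bnip3l (0.92 each), and Hpgds by Clec4a3, Gng2 and Ms4a7 (0.93 each). Ptges2 was followed by Dpy30 (0.93), Ssr1 and Bag1 (0.92 each), and Ptger2 by AB124611 (0.91), Atg9a (0.88) and Mrpl4 (0.87). The closest genes were less close for Ptgs2, at 0.84 for Irak2, 0.81 for Hk2 and 0.80 for Ncf1, and stood at 0.92 for Vps51 and Rpl7a and 0.89 for Cyrib in the case of Alox5ap.

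No gene of the wider eicosanoid pathway passed the threshold on all 16 arrays either. Of 77 other genes listed for it, 71 were tested; limma called 0 at an adjusted p under 0.05 and counted 6 at an unadjusted p under 0.05, while 34 were higher and 37 lower by mean in tumoral cells, with a median difference of -0.01. Over all genes the unadjusted count was 11.5%, and 8311 were higher and 11627 lower, so the pathway's count did not exceed the background.

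Of 22 genes listed under phospholipases and arachidonic acid supply, not all of which release it, 10 were higher and 12 lower by mean, with 3 at an unadjusted limma p under 0.05. Pla2g2e, a secreted phospholipase A2, stood at 7.09 ± 0.17 in peritumoral and 6.88 ± 0.09 in tumoral cells (SD, n = 8 each), a difference of -0.21 (SE 0.07, limma adjusted p = 0.301). It was 7.08 to 7.35 in the first 6 arrays and 6.75 to 7.07 in the other 10, the same arrays that Ptges3 set apart. Anxa1, which encodes annexin A1, an inhibitor of phospholipase A2, differed by 0.32, Faah, an amidase of fatty acid amides, by -0.27 and Pla2g7, the platelet-activating factor acetylhydrolase, by 0.11 (-0.001 without peritumoral array 4); none of them passed the threshold.

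Among the 6 other prostanoid synthases and reductases, 3 were higher and 3 lower by mean and 0 reached an unadjusted limma p under 0.05. Tbxas1, the thromboxane synthase, differed by 0.24 and Ptgis, the prostacyclin synthase, by -0.24, and without peritumoral array 4 by 0.10 and -0.11. Prxl2b, a prostaglandin F synthase, differed by 0.20 and Cbr1, a carbonyl reductase, by 0.05. Prxl2b was 7.65 to 8.05 in the 5 arrays of low Alox5 and 6.80 to 7.37 in the other 11. Of the 6 genes 1 was wholly higher and 0 wholly lower in those 5 arrays, beside 8.37% and 3.60% of all genes.

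Of 16 other genes of the lipoxygenase and leukotriene group, 6 were higher and 10 lower by mean, with 2 at an unadjusted limma p under 0.05. Cotl1, a partner of 5-lipoxygenase, differed by 0.37, and the listed coronins Coro1a and Coro1b by 0.14 and -0.16. Alox12, the platelet-type 12-lipoxygenase, differed by -0.14 and Dpep2, a dipeptidase that acts on leukotriene D4, by -0.07. None of them passed the threshold.

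No receptor passed the threshold. Of 7 other prostanoid receptors 3 were higher and 4 lower, with 0 at an unadjusted limma p under 0.05; Ptger1 and Ptger3, the EP1 and EP3 receptors, differed by 0.07 and -0.11, Ptgir, the prostacyclin receptor, by -0.05 and Tbxa2r, the thromboxane receptor, by -0.04. Of 8 leukotriene and resolvin receptors 5 were higher and 3 lower, also with 0 at that p. Gpr31b, a receptor for 12-lipoxygenase products, differed by 0.32 (0.21 without peritumoral array 4), Cysltr1, a cysteinyl leukotriene receptor, by 0.17 (0.001 without peritumoral array 4), Ltb4r1, the high-affinity leukotriene B4 receptor, by -0.10 and Gpr17 by 0.06. Cmklr1, the receptor for chemerin and resolvin E1, differed by 0.15 and was 9.99 to 10.41 in the 5 arrays of low Alox5 against 9.08 to 9.85 in the other 11. Of the 8 leukotriene and resolvin receptors 1 was wholly higher and 1 wholly lower in those 5 arrays, and of the 7 other prostanoid receptors 0 were either.

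Transport and breakdown held the widest spread. Of 12 genes 7 were higher and 5 lower by mean, with 1 at an unadjusted limma p under 0.05. Slco2a1, the prostaglandin transporter, stood at 7.46 ± 1.67 in peritumoral and 6.25 ± 0.21 in tumoral cells (SD, n = 8 each), a difference of -1.21 with a limma adjusted p of 0.403. Its peritumoral mean was carried by array 4 at 11.03, array 7 at 8.61 and array 5 at 7.69; arrays 4 and 7 also held the highest endothelial list means, 10.83 and 8.59, and their part in the result was not tested. Hpgd, which starts the inactivation of prostaglandins, differed by -0.36 between the labels. It was 8.47 to 9.29 in the 5 arrays of low Alox5 against 10.10 to 12.03 in the other 11. Slco2a1 was 5.95 to 6.18 against 6.31 to 11.03. Of the 12 genes 3 were wholly lower and 2 wholly higher in the 5 arrays, beside 3.60% and 8.37% of all genes. The difference of Hpgd between the labels turned to 0.05 without peritumoral arrays 4 and 7. Cyp4f18, a leukotriene B4 hydroxylase, differed by 0.18, Cyp4f14 by -0.11 and Cyp4f13 by -0.10.

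**Figure D4:**
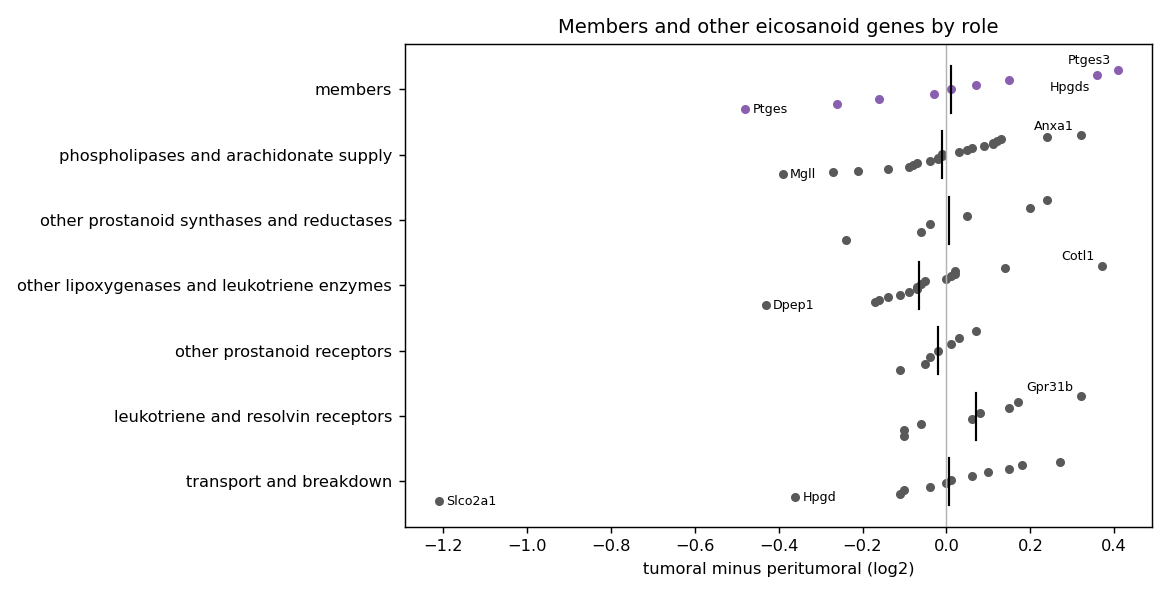
Tumoral minus peritumoral difference (log2, horizontal axis) of the 9 genes and of 71 other eicosanoid genes by role, 1 point per gene over 8 arrays per label, with the median of each role as a black bar. The medians lie between -0.06 and 0.07, and Slco2a1, at -1.21, lies farthest from 0.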

How the data were processed

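Total RNA from the sorted cells was amplified, labelled with biotin and hybridised to whole-transcript arrays, per the labels' protocols. The deposited table holds 1 value for each of 28853 probe sets and 16 arrays, taken here as log2 values because of their range; no label names the software, normalization or log base that the authors used. The values were used as deposited. Of the probe sets 21789 carried 1 gene symbol in the platform annotation, 1621 several and 5443 none; the single-symbol ones gave 19938 genes, and of several probe sets the one with the highest mean was taken. limma 3.58.1 (lmFit and eBayes, R 4.3.3) compared the labels, two-sided, with 14 residual degrees of freedom and Benjamini-Hochberg adjustment over all 19938 genes. The number of arrays limits the precision. The script was tested on simulated data.

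The 10 genes and all other lists were chosen with earlier results of these data known. Named are all members, the 3 pathway genes per role with the smallest limma p and the 2 with the highest mean, the sorting markers and the 3 genes closest to each member; others are said to have been named after their values were seen. Pla2g4b, Fam213b (an older symbol of Prxl2b), Akr1b3, Ggt1, Ltb4r2 and Fpr2 were not tested, having no single-symbol probe set. Alternatives were other normalizations, filters, weights, blocks, tests and left-out arrays. Promoter windows are RefSeq's.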

Additional observations from a re-analysis of the deposited data

Results flagged for a closer look

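In 36 named genes, each array was set against the other 7 of its label, and 10 of the 72 sets held a lowest or highest array whose gap to its neighbour exceeded 0.526 of the range of the label. Chance gives about 1 such set in 20. Of the 10, 9 were peritumoral array 4.

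Among the members, Hpgds was 8.41 in peritumoral array 4, with the nearest array at 9.08, and Alox5ap was 11.25 there, with the nearest at 11.61. Ptgs2 was 12.70 in tumoral array 3, with the nearest at 12.79, a gap that is large only against the narrow tumoral range.

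In the rest of the pathway, peritumoral array 4 was the lowest of its label for Tbxas1 (9.19, nearest 10.15), Cotl1 (9.14, nearest 9.87), Gpr31b (8.69, nearest 9.44), Ltb4r1 (6.78, nearest 7.16) and Cysltr1 (9.38, nearest 10.47). It was the highest for Ptgis (8.10, nearest 7.20) and Alox12 (6.07, nearest 5.64).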

How the results depend on the processing

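The count of members called was 0 in the fit on all 16 arrays, and also 0 with quantile normalization, median centring, cyclic loess, only genes above the median mean, the mean of all probe sets, a trended and robust prior, array weights, a threshold of 0.1, the exact permutation over 12870 assignments and the column place as a block. It was 1 without peritumoral 4 and 7 and 1 without peritumoral 7 and 8, Ptges3 in both, and 0 to 1 with each array left out in turn. Without peritumoral 4 and 7 the difference of Ptges3 was 0.44 (limma adjusted p = 0.0301). Pathway genes called rose from 0 to 1, Pla2g2e, without peritumoral 7 and 8. Those 2 arrays lay with the tumoral ones in both genes, so leaving them out favours a call by construction. All genes called rose to 88 without peritumoral 4 and 7 and to 522 without peritumoral 7 and 8, and ran from 0 to 128 with each array left out; marker genes called were 2 and 2, and 0 to 1. Of 36 pairs of members, 4 passed the threshold by Pearson's r over all arrays, 3 within the peritumoral and 2 within the tumoral label, counts that the array sets under the column order do not allow to be read as relations between genes.

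Signs turned for some differences, none of which passed the threshold. Ptgs2 was 0.003 with quantile normalization and 0.02 with median centring; Ptger4 was -0.07 with quantile normalization, -0.05 with cyclic loess and -0.04 with array weights. Dpep2 was 0.04 with the mean of its probe sets, Tbxa2r 0.001 with median centring and 0.05 without peritumoral 4 and 7, Pla2g7 -0.09 and Hpgd 0.05 without those arrays. With each array left out in turn, Ptgs2 ran from -0.07 to 0.01, Ptger4 from -0.10 to 0.12, Cbr1 from -0.009 to 0.10, Dpep2 from -0.24 to 0.05, Pla2g7 from -0.001 to 0.20 and Tbxa2r from -0.12 to 0.02. The cause was not tested.

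The titles share replicate numbers, and with the replicate number as a fixed or random block 0 members were called; Ptges3 kept its difference of 0.41, with a limma adjusted p of 0.360 and 0.289. Same-numbered arrays deviated together with a correlation over 0.1 in 3 of 8 numbers (-0.56 to 0.29). Same-numbered arrays never share a column place in steps of 3, and arrays correlated best within a place. These correlations therefore cannot show whether the numbers mark pairs. The main fit does not use the numbers as pairs.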
